A study of Mus musculus with 5 samples.

Results

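Gut and islet hormone genes, the precursors of peptides that endocrine cells of the pancreas and digestive tract release into the blood, were followed in embryonic mouse cortex after misexpression of Ptf1a. The group was set by name, as the rows for Ins1, Ins2, Gcg, Ghrl, Pyy, Ppy, Iapp, Sct, Gip and Gast, which makes 10 of the 23234 genes in the deposited table. The genes were chosen by name with their FPKM values in both groups already known, so the difference between the groups is given here as a description and not as a test of them. CD1 cortices were electroporated at embryonic day E12.5 and the GFP-expressing cells were purified at embryonic day E15.5, per the labels. One group of 3 samples received a construct for Ptf1a and GFP (Ptf1a-misexpression), and the other group of 2 samples received GFP alone (GFP-only control). Both groups therefore carried GFP and the electroporation, each sample pooled 3 to 6 brains, and the promoter of the constructs is not given in the sources used here.

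Expression is given in FPKM, a count of sequenced fragments divided by transcript length and by the size of the library, as 1 value that the authors merged from the samples of each group. No values per sample were analysed here, so no SD between samples and no depth per sample can be given for any gene below. The error available is the authors' own test. Where it left a statistic, the deposited log2 fold divided by that statistic was taken as an implied standard error. A gene is called where the deposited q was under 0.05. In bulk RNA a change in the number of cells making a transcript and a change in transcript per cell cannot be told apart. Among the 23234 rows a 0 need not mean absence, since all 16 rows marked as holding too much data were listed at 0 in at least 1 group. Ptf1a itself stood at 0.210 FPKM in controls and 38.9 FPKM with the construct, in the direction of the labels. All 12 pyramidal neuron markers were above 1 FPKM in both groups, led by Neurod6, a factor of postmitotic pyramidal neurons, at 1717 and 1190 FPKM.

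As background, each of these hormones is made as a longer precursor that prohormone convertases cut inside dense-core vesicles. Insulin (Ins1 and Ins2) and amylin (Iapp) come from beta cells, glucagon (Gcg) from alpha cells, pancreatic polypeptide (Ppy) from PP cells, and ghrelin (Ghrl) from the stomach and from epsilon cells of the fetal islet. Peptide YY (Pyy), secretin (Sct), glucose-dependent insulinotropic polypeptide (Gip) and gastrin (Gast) come from enteroendocrine cells of the gut and stomach. Gcg is also expressed by a group of hindbrain neurons. Ptf1a is a basic helix-loop-helix factor that is needed for the pancreas to form and is later kept in its acinar cells, and it binds DNA in a trimer with an E-protein and an Rbpj factor. That complex reads an E-box next to a TC-box (TTTCCC).

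The sequences upstream of Ghrl, Gcg, Pyy and Ppy, the hormone genes with the highest values with Ptf1a, are shown first, because they are where such a complex could bind. They are the 250 bases before an annotated start, from RefSeq on GRCm38.p6, a later build than the mm9 of the deposited table. Of the 10 genes 9 had an entry in that table, and Ins2 did not. Capitals mark matches to the E-box CANNTG and to TTTCCC (on either strand, so also GGGAAA). All 5 stretches lie on the minus strand and are written 5′ to 3′ along the gene.
Ghrl, most upstream start, chr6:113719912-113720161: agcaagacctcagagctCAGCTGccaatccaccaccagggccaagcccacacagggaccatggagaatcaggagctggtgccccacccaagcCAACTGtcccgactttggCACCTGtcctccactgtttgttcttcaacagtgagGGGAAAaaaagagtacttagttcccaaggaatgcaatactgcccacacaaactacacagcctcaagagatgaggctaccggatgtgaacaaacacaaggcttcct
Ghrl, internal start, chr6:113717693-113717942: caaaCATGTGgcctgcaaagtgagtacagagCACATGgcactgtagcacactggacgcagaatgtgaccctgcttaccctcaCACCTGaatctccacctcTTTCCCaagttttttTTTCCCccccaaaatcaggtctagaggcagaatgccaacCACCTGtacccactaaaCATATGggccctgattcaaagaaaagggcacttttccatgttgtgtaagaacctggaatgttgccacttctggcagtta
Pyy, most upstream start, chr11:102107833-102108082: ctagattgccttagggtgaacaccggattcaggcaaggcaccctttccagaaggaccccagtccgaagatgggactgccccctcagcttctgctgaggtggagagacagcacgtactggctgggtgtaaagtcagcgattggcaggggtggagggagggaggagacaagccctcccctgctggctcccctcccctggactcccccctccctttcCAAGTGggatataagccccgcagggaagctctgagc
Ppy, chr11:102101320-102101569: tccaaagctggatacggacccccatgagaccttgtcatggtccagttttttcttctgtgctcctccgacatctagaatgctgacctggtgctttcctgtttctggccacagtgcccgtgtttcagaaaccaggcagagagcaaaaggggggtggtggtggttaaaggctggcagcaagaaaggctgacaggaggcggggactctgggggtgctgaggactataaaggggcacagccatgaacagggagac
Gcg, chr2:62483654-62483903: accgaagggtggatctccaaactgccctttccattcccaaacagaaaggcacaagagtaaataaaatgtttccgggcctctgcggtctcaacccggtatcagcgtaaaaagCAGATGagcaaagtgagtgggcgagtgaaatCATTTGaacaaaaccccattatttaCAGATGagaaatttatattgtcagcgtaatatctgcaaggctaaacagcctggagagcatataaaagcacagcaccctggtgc

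The printed Ghrl stretches hold E-boxes of the form CACCTG together with a TC-box. The other annotated Ghrl starts, not printed, had neither CANNTG nor TTTCCC in the 250 bases before them. Upstream of the internal start, in a stretch that overlaps no annotated exon of GENCODE M21, a CACCTG is followed after 12 letters by TTTCCC. Upstream of the first start the gap to GGGAAA, the TC-box on the other strand, is 29 letters. Over all 32851 promoter windows of 300 bases (250 before and 50 after the start) in the same table, CACCTG or its complement occurred in 20.2%, TTTCCC or GGGAAA in 25.2%, and a pair of them within 30 letters in 1.12%. The limit of 30 letters was chosen after the Ghrl sequence had been seen, and Ghrl has several windows, so its match is a description only. In the Ppy stretch neither CANNTG nor TTTCCC was found, and the Pyy stretch held 1 CANNTG and no TTTCCC. The Gcg stretch held 3 E-boxes, 2 of them CAGATG, and no TTTCCC. Over the 9 genes CACCTG was found for Ghrl, Iapp and Gast, CAGCTG (in 16.3% of all windows) for Ghrl, Sct and Gip, and TTTCCC for Ghrl, Gip and Gast. Gast, whose stretch is not printed, thus held both an E-box of the first form and the TC-box, though not within 30 letters of each other. CANNTG, which contains the other E-boxes, was found for 8 of 9 genes, in 12 of their 13 windows and in 72.3% of all windows. A gene with several windows counted if any of them matched. By window CACCTG was found in 4 of the 13, CAGCTG in 3 and TTTCCC in 4. TTTCCCA, in 8.06% of all windows and contained in TTTCCC matches, was found for Ghrl alone among the 9.

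In control cortex the hormone genes were nearly silent apart from Gcg and Sct, the 2 of 10 at or above 1 FPKM. With Ptf1a 6 of 10 reached 1 FPKM: Ghrl, Gcg, Pyy, Ppy, Ins2 and Sct, in that order. Gcg made up 93.5% of the summed level of the 10 genes in controls (28.0 FPKM) and 27.3% with Ptf1a (36.7 FPKM). With Ptf1a the highest values were those of Ghrl, Gcg, Pyy and Ppy, of which Gcg alone was called in the test of the authors. Values were higher with Ptf1a in 6 genes, lower in 3 and listed at 0 in both groups in 1. The order of neighbouring genes, such as Ghrl and Gcg with Ptf1a, cannot be set against a spread between samples.

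**Figure D1:**
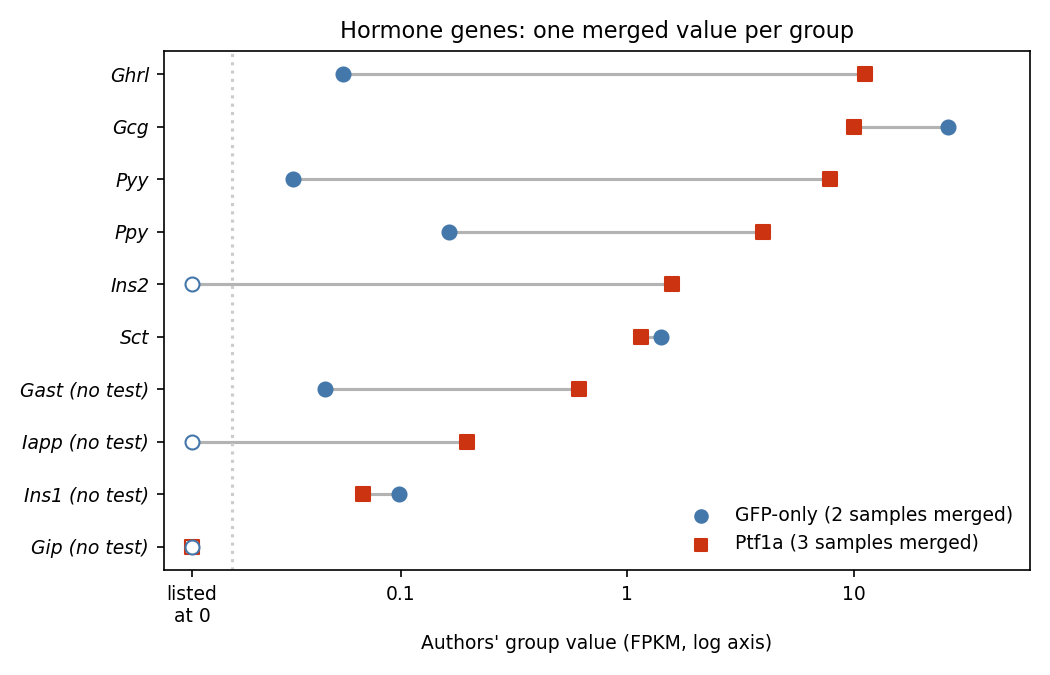
Authors' FPKM value (log axis) of each of the 10 hormone genes in GFP-only (blue circles) and Ptf1a (red squares), with open symbols for a value listed at 0 and grey lines joining the groups. Ghrl, Pyy and Ppy lie below 0.2 FPKM in controls and at 11.2, 7.89 and 4.0 FPKM with Ptf1a, whereas Gcg lies at 26.1 and 10.0 FPKM.

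The test of the authors covered 6 of the 10 genes, and 4 (Ins1, Iapp, Gip and Gast) had no test. Of the 6, 1 was called higher (Ins2), 1 was called lower (Gcg) and 4 were not called. Over all 11876 tested genes 37.7% were called, 18.7% higher and 19.1% lower. At a q under 0.01 the same 2 hormone genes were called, and the shares over all tested genes were 25.9%, 12.9% and 12.9%. At a q under 0.1, where Pyy was also called higher, the shares were 44.9%, 22.2% and 22.7%. Taking a normal p of the deposited statistic instead, Gcg alone of the hormone genes was called, against 6.12% of all genes with a statistic, 3.31% higher and 2.81% lower; Ins2 has no finite statistic. Over all 10 genes the median difference on the log2(FPKM + 0.1) scale was 1.93, beside a median of 0.00 over all rows of the table, in a list proposed for its large differences.

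Ghrl, the ghrelin precursor (chromosome 6, 113666113 to 113669874, mm9), had the highest hormone level with Ptf1a. It stood at 0.0556 FPKM in controls, above 34.3% of all rows of the table, and at 11.2 FPKM with Ptf1a, above 82.0% of them. The ratio of the values was 202, the deposited log2 fold 7.66 and the implied standard error 2.63. Ghrl was not called in the authors' deposited table (p = 0.175, q = 0.288), although its deposited log2 fold was larger than its implied standard error. A two-sided normal p of the deposited statistic of 2.91 would be 0.00366, far from the deposited p, so the 2 measures of error in the table disagree for this gene. The disagreement is not particular to Ghrl. For Ppy too the normal value is the smaller of the 2, and for Pyy it is the larger. Over the table the deposited q called 37.7% of tested genes, and the normal p 6.12% of those with a statistic.

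Pyy, which encodes peptide YY (chromosome 11, 101967991 to 101969090, mm9), stood at 0.0337 FPKM in controls and 7.89 FPKM with Ptf1a. Its ratio of 234 was the largest among the hormone genes with a control value above 0. The deposited log2 fold was 7.87 with an implied standard error of 4.59, and the gene was not called (q = 0.0795 in the authors' deposited table). Ppy, the precursor of pancreatic polypeptide (chromosome 11, 101961245 to 101962614, mm9), stood at 0.164 and 4.0 FPKM, a ratio of 24.3. The deposited log2 fold was 4.60 with an implied standard error of 1.73, and this gene too was not called (q = 0.113).

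Pyy and Ppy are paralogs of the neuropeptide Y family and direct neighbours, with 5377 bases between their loci. The genes on the outer sides did not share the size of their difference. Mpp2, a membrane scaffold gene, had values of 2.22 and 1.94 FPKM and no call, and Nags, an enzyme gene of the urea cycle, was listed at 0 in controls and at 0.0271 FPKM with Ptf1a, with no test. Npy, the brain member of the same peptide family on another chromosome, was uncalled at 100.3 and 97.5 FPKM. Sec13, the neighbour of Ghrl at a distance of 8.17 kb, was uncalled too, at 266 and 278 FPKM. Over all 10 hormone genes there were 23 neighbouring or overlapping genes outside the group, rows that share the nearest locus included. Of these 11 were tested and 3 were called, where 37.7% of all tested genes were called. They were Snf8 (38.7 to 30.5 FPKM) and Igf2bp1 (0.986 to 1.73 FPKM) on either side of Gip, and Igf2 beside Ins2.

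**Figure D2:**
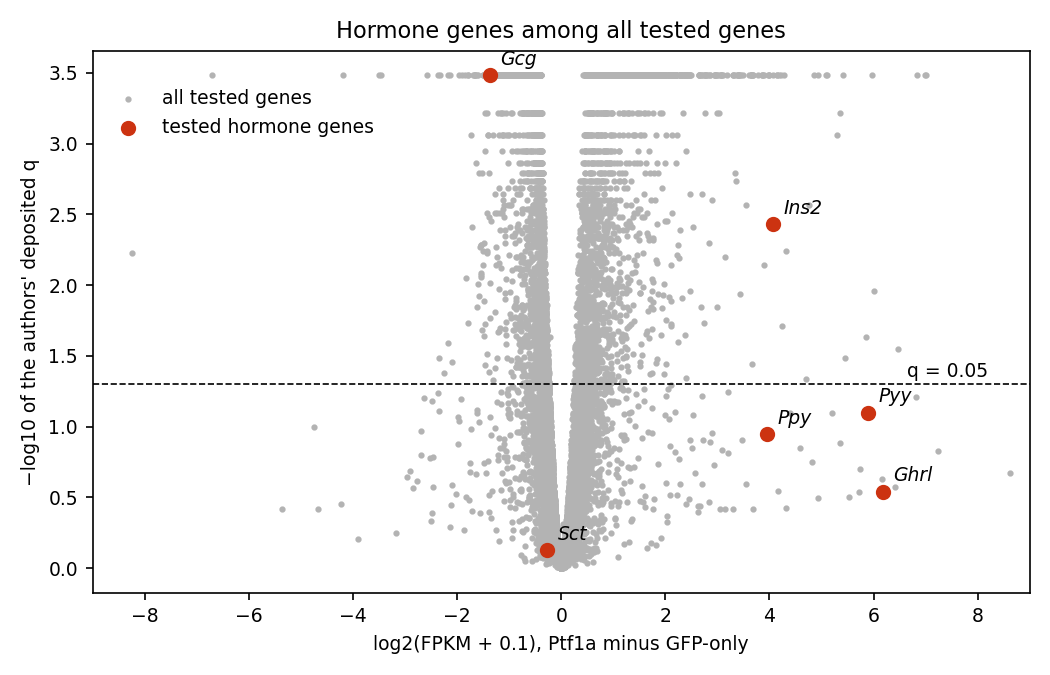
Difference in log2(FPKM + 0.1), Ptf1a minus GFP-only (x axis), against −log10 of the authors' deposited q (y axis) for tested genes (grey, 15 of them beyond the x axis) and the 6 tested hormone genes (red). Ghrl, Pyy and Ppy lie far to the right but below the dashed line at q = 0.05, while Ins2, whose x position depends on the added 0.1 because its control value is 0, and Gcg lie above it.

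Ghrl, Pyy and Ppy had large implied standard errors. For each of them the statistic and the deposited p disagreed, so these errors need not be those behind the deposited q. Among 5620 tested genes with a mean of the group values between 1 and 10 FPKM, the implied standard error had a median of 0.41 and a 95th percentile of 0.90 in log2 units. The value of Pyy exceeded that of 99.8% of those genes, Ghrl 99.4% and Ppy 98.7%. Sct, at 0.90, lay at that percentile. The band was set by the mean of the groups and not by the low control value. With limits chosen after the values were seen, 25 tested named genes lay above 0 and under 0.2 FPKM in controls and at 3 FPKM or more with Ptf1a. Their implied standard errors ran from 1.01 (Prdm13) to 6.83 (Agr2), with Pyy, Ghrl and Ppy among them. All 10 hormone transcripts are short, between 460 bases for Gast and 1088 bases for Gcg in the longest protein-coding model of GENCODE M21. The part of transcript length, or of a control value near 0, in the errors of the hormone genes was not tested. How the samples of a group differed for Ghrl, Pyy or Ppy cannot be read from merged values.

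**Figure D3:**
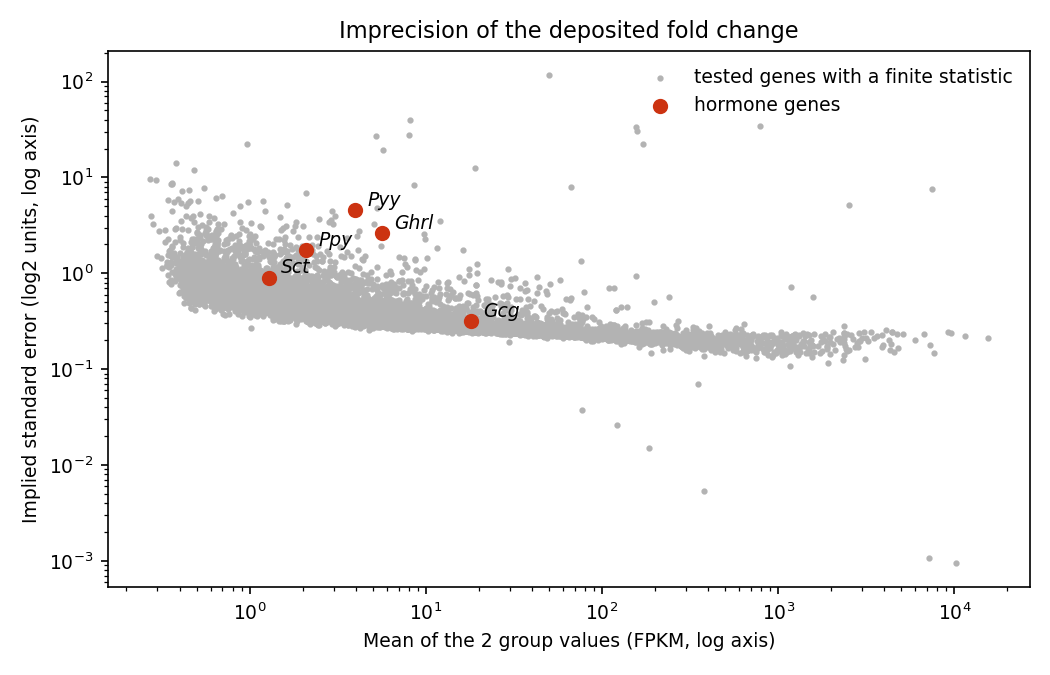
Implied standard error of the deposited log2 fold (y axis, log2 units, log axis) against the mean of the group values in FPKM (x axis, log axis) for tested genes (grey) and the 5 hormone genes with a finite statistic (red). Pyy, Ghrl and Ppy lie above most genes of similar mean, with errors of 4.59, 2.63 and 1.73, and the error of Gcg is 0.32 at a mean of 18.1 FPKM. The genes are not matched by control value here.

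Gcg, which encodes proglucagon (chromosome 2, 62312587 to 62321710, mm9), was the hormone gene with the highest control level and went the other way. Its value was 26.1 FPKM in controls, above 88.2% of all rows, and 10.0 FPKM with Ptf1a, 2.61-fold lower. The deposited log2 fold was -1.38 with an implied standard error of 0.32 and q = 0.000329 in the authors' deposited table. That q belongs to the smallest p in the table, 5e-05, which 1803 tested genes share, so it does not rank Gcg among them. Neither neighbour was called: Fap, a serine protease gene 17.3 kb away, stood at 0.540 and 0.00297 FPKM (q = 0.0626), and Dpp4, which encodes the protease that inactivates glucagon-like peptide, had 0.195 and 0.126 FPKM and no test.

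Some markers of other cells fell beside Gcg, where 19.1% of all tested genes were called lower and 18.7% higher. Of the red blood cell markers 3 of 6 tested fell and none rose, and the summed level of the 7 found went from 150 to 62.7 FPKM, with Hbb-bh1 listed at 0 in both groups. Among choroid plexus markers Ttr, a thyroid hormone carrier that islet alpha cells also make, fell from 31.4 to 6.92 FPKM. The sum over the 8 choroid plexus markers went from 33.2 to 8.81 FPKM, nearly all of it Ttr, with Folr1 and Aqp1 listed at 0 in controls and at 0.287 and 0.0449 FPKM with Ptf1a. Their part in the Gcg difference was not tested. The 9 microglia markers summed to 17.8 and 13.5 FPKM with 1 of 7 tested fallen, the 8 endothelial markers to 4.40 and 7.17 FPKM with 1 of 3 risen, and the 7 meningeal markers to 4.11 and 2.68 FPKM with 1 of 2 fallen.

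The insulin genes differed from each other. Ins2 (chromosome 7, 149864561 to 149865613, mm9) was listed at 0 in controls and stood at 1.58 FPKM with Ptf1a. It was called in the authors' deposited table (q = 0.00371), with an infinite deposited fold and no finite statistic. A control value of 0 often went with a call. Among tested genes under 0.2 FPKM in controls and at 3 FPKM or more with Ptf1a, all 3 listed at 0 in controls were called. Of the 25 above 0 in controls 12 were called. The call of Ins2 therefore does not rank its rise above those of Ghrl, Pyy and Ppy. Ins1, the rodent retrogene copy of Ins2 (chromosome 19, 52338813 to 52339948, mm9), stood at 0.0988 FPKM in controls and 0.0685 FPKM with Ptf1a, untested. The 2 genes are near-identical in coding sequence, and how the authors' counting divided shared fragments is not given in the sources used here, so the split between Ins1 and Ins2 is uncertain. Igf2, whose locus ends 8.3 kb from Ins2 and is given in the table to its antisense gene Igf2as and to Mir483 as well, rose from 0.278 to 0.718 FPKM, and Th on the other side, the enzyme gene of dopamine synthesis, stood at 0.132 and 0.316 FPKM without a test. Iapp, the amylin precursor that beta cells release with insulin (chromosome 6, 142182750 to 142271470, mm9), was listed at 0 in controls and at 0.197 FPKM with Ptf1a, without a test. The table gives Iapp the same locus as Slco1a5, a transporter gene at 0.00492 and 0.00830 FPKM.

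Among the gut hormones Sct, the secretin precursor (chromosome 7, 148464237 to 148465030, mm9), hardly differed in value, at 1.41 and 1.16 FPKM. Its deposited log2 fold was -0.29 with an implied standard error of 0.90 and q = 0.744, an error larger than the fold itself. Gast, the gastrin precursor (chromosome 11, 100195726 to 100198310, mm9), had values of 0.0465 and 0.612 FPKM, a ratio of 13.1 that the authors did not test. Gip (chromosome 11, 95885859 to 95892142, mm9) was listed at 0 in both groups. Pyy, Ppy, Gip and Gast all lie on chromosome 11, and with Ptf1a they stood at 7.89, 4.0, 0 and 0.612 FPKM, each at 0 or under 0.2 FPKM in controls.

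The genes closest to each hormone gene in both group values were found over the 2 values log2(FPKM + 0.1) as the straight-line distance. For Ghrl they were Cela2a, a pancreatic elastase (0.0487 and 10.6 FPKM, distance 0.10), Gkn3, a gastrokine of the stomach lining (0.0372 and 11.7 FPKM, distance 0.19), and Reg2, a secreted pancreatic protein (0.0566 and 8.30 FPKM, distance 0.43). None of these was called. For Pyy they were Reg2, the lipase gene Cel and the trypsinogen gene Try4, at distances of 0.24 to 0.41, and of these Cel was called (q = 0.0330). Ppy lay closest to Slc30a3, a vesicular zinc transporter (0.214 and 4.58 FPKM), Krt19, a keratin of ducts and simple epithelia (0.117 and 3.14 FPKM), and Cpa1, a carboxypeptidase of acinar cells (0.0931 and 3.75 FPKM), and all 3 were called. The genes nearest to Ins2 were Sycn, an acinar secretory granule protein (0 and 1.34 FPKM, called), Btg3, an antiproliferative gene (not called), and Saa3, an acute phase protein (called). Nearest to Gcg were Rps19-ps3, a ribosomal protein pseudogene (25.3 and 9.47 FPKM), Spa17 (23.6 and 8.72 FPKM) and Hbb-y, an embryonic globin (32.0 and 10.6 FPKM), all 3 called. Sct lay nearest to LOC106740, Arhgap18 and Kif26a, none of them called. With 2 values per gene, closeness says only that levels were alike.

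Acinar genes of the exocrine pancreas were higher in the same group as Ghrl, Pyy, Ppy and Ins2. Of 18 tested acinar genes 11 rose and none fell, and the summed level of the 25 genes went from 8.37 to 107 FPKM. At a q under 0.01 there were 6 risen acinar genes, and as many with a normal p of the deposited statistic, but not the same genes. Cela3b, Clps, Rnase1 and Sycn, called at a q under 0.01, were listed at 0 in controls. Like Ins2 they have an infinite deposited fold and no implied standard error. The share called higher over all tested genes was 18.7% at a q under 0.05 and 12.9% at a q under 0.01. With the normal p it was 3.31% of the genes with a statistic. The called genes with the largest differences were the trypsinogen Prss2 (0.129 to 20.2 FPKM), the chymotrypsinogen Ctrb1 (0.170 to 17.2 FPKM), Cel (0.0499 to 6.43 FPKM) and the colipase Clps (listed at 0, then 3.35 FPKM). Cela2a, Try4 and Prss3 at 10.6, 5.92 and 4.30 FPKM with Ptf1a and under 0.06 FPKM in controls were not called. Amy2a5 and Ctrc, which encode amylase and chymotrypsin C, were listed at 0 in both groups, and the acinar factor gene Bhlha15 stood at 0.00662 and 0.0101 FPKM (all 3 chosen after their values were seen). Rbpjl of the same list, also picked with its values in view, was higher with Ptf1a, at 0.00509 and 0.467 FPKM without a test. The part of pancreatic or gut transcripts as a whole in the hormone differences was not tested.

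Transcription factors of islet and enteroendocrine cells were then examined. Of 34 factors 13 were tested, and 10 rose, 1 fell and 2 were not called, with a median log2 difference of 0.84 beside -0.01 over all tested genes. With a normal p of the deposited statistic 3 were called higher, against 3.31% of all genes with a statistic. By the deposited q 18.7% of all tested genes were called higher and 19.1% lower. The risen factors with the largest differences also act in neurons or neural progenitors: St18, a zinc finger factor of the Myt1 family (0.467 to 10.0 FPKM), Pax6 (3.73 to 21.5 FPKM), Sox9 (2.48 to 7.15 FPKM) and Neurog3, the factor that starts endocrine fate in the pancreas (0.311 to 0.813 FPKM, q = 0.0492). Neurod1, also present in cortical neurons, fell from 50.6 to 35.9 FPKM, and Rfx3 (0.915 and 1.12 FPKM) was not called. Several factors central to pancreatic endocrine cells were at or near 0. Chosen after their values were seen, Pdx1, the factor of early pancreas and beta cells, was listed at 0 and at 0.0183 FPKM, Nkx6-1 stood at 0.109 and 0.0331 FPKM, and Mafa, Rfx6, Hnf4a and Foxa2 were listed at 0 in both groups.

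Beta cell genes of glucose sensing were called about as often as all tested genes (37.7%). Of 14 genes 5 were tested, with 1 risen (Gjd2, a gap junction protein shared with neurons, 0.452 to 1.35 FPKM), 1 fallen and 3 not called, and the median was 0.32. The uncalled genes were Kcnj11 (2.80 and 3.68 FPKM) and Abcc8 (0.824 and 1.05 FPKM), which form the potassium channel that couples glucose to insulin release, and Ero1lb (0.687 and 0.535 FPKM). The glucose transporter Slc2a2 and the islet phosphatase G6pc2 were listed at 0 in both groups (chosen after their values were seen).

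**Figure D4:**
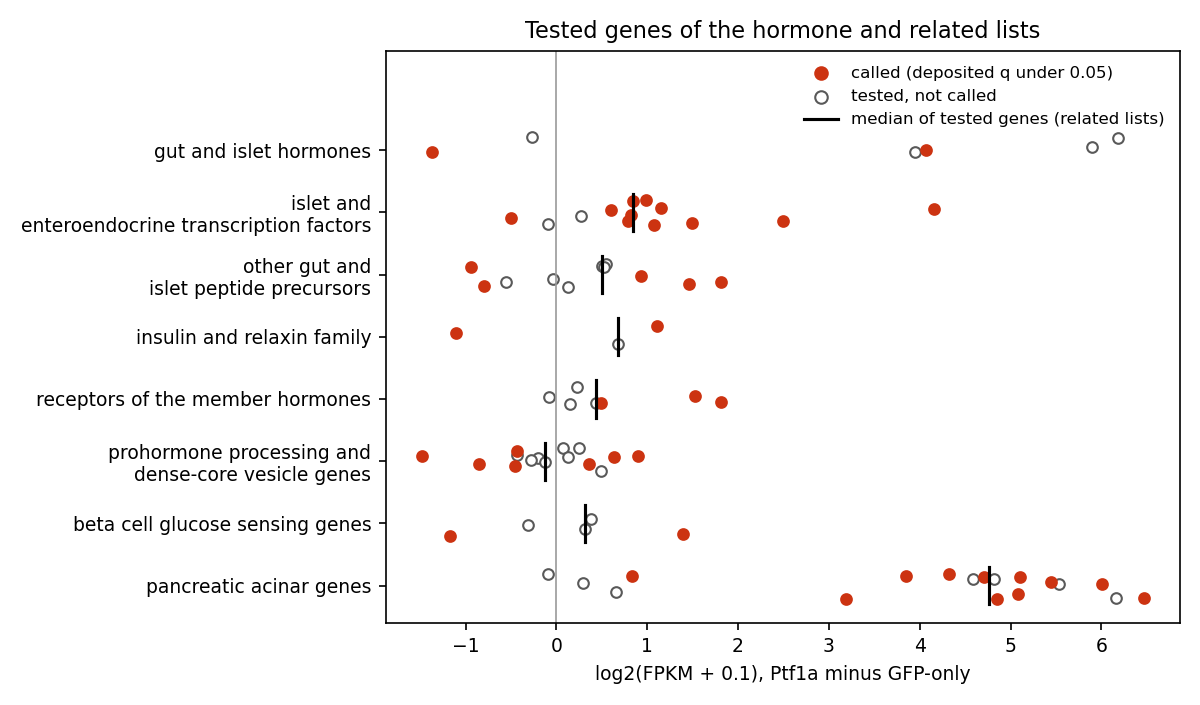
Difference in log2(FPKM + 0.1), Ptf1a minus GFP-only, of each tested gene in the hormone group and 7 related lists, with red for genes called at a deposited q under 0.05, open circles for tested genes not called and black bars for the median of each related list. The acinar genes centre on 4.76 and the islet factors on 0.84, while the processing genes centre on -0.13.

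The enzymes and vesicle proteins that turn such precursors into hormones were present in both groups. Of 20 processing and dense-core vesicle genes 15 were tested, 3 rose, 4 fell and 8 were not called, with a median of -0.13. Among all tested genes 18.7% were called higher and 19.1% lower. Pcsk1, the convertase that yields glucagon-like peptides from proglucagon, fell from 0.818 to 0.229 FPKM, and Pcsk1n, which encodes its inhibitor, fell from 8.05 to 4.41 FPKM. Ide, the insulin-degrading enzyme, rose from 1.29 to 2.49 FPKM, and Cadps, a vesicle priming factor, from 2.79 to 4.37 FPKM. The carboxypeptidase gene Cpe (90.5 and 95.4 FPKM), the granin genes Scg3 (75.9 and 69.3 FPKM) and Chga (46.6 and 40.3 FPKM), and Qpct (6.49 and 5.33 FPKM) were not called. Mboat4, the acyltransferase that activates ghrelin, had untested values, 0.0538 and 0.270 FPKM, and was picked out with these in view.

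Receptors for these hormones were low, and 7 of 20 had a test. Of these 3 rose and none fell, with a median of 0.44, where 18.7% of all tested genes were called higher and 19.1% lower. The secretin receptor gene Sctr rose from 0.313 to 1.36 FPKM, Ramp2, a partner of calcitonin family receptors, from 0.762 to 2.37 FPKM, and Igf1r, the insulin-like growth factor receptor, from 1.77 to 2.53 FPKM. Gipr (3.21 and 3.77 FPKM), Npy1r (1.04 and 1.16 FPKM), which peptide YY can bind, the insulin receptor gene Insr (1.10 and 1.04 FPKM) and Ramp3 (0.750 and 1.05 FPKM) were not called. Among the untested genes of the list Ramp1 was the highest in both groups, at 0.497 and 0.373 FPKM, and the gastrin receptor Cckbr was listed at 0 in controls and at 0.105 FPKM with Ptf1a. Ghsr, the ghrelin receptor, stood at 0.0209 and 0.00610 FPKM, Npy2r at 0 and 0.0107 FPKM, and the pancreatic polypeptide receptor Npy4r (under its older symbol) at 0 in both. The glucagon receptor Gcgr and Glp1r stood at 0.00595 and 0.00796 FPKM in controls and were listed at 0 with Ptf1a (all 7 chosen after their values were seen).

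Other peptide precursors that gut or islet cells share with neurons gave a mixed picture. Of 19 genes 11 were tested, 3 rose, 2 fell and 6 were not called, with a median of 0.50. The shares called over all tested genes were 18.7% higher and 19.1% lower. Gal, the galanin precursor (3.59 to 12.8 FPKM), Nts, the neurotensin precursor (2.96 to 8.33 FPKM), and Sst, the somatostatin precursor (41.3 to 78.6 FPKM), rose. Cck, the cholecystokinin precursor, fell from 13.1 to 6.81 FPKM, as did Adcyap1, the precursor of a pituitary adenylate cyclase-activating peptide, from 2.23 to 1.24 FPKM. Beside Npy, Nmb (5.41 and 5.94 FPKM), Grp (4.24 and 6.24 FPKM) and Tac1 (3.35 and 4.86 FPKM) were not called. In the insulin and relaxin family 3 of 7 genes were tested, Igf2 rose, Rln1, a relaxin precursor, fell from 6.87 to 3.14 FPKM, and Insl6 (0.975 and 1.63 FPKM) was not called. The median of the family was 0.68, and 37.7% of all tested genes were called.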

How the data were processed

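RNA from GFP-positive cortical cells of 5 samples (2.1 to 7.8 ng) went through a low-input amplification kit and was sequenced as 50-base pairs, per the labels' protocols. Per the submitters' processing notes, the authors used TopHat2 2.0.8 on mm9, Cuffdiff, Cufflinks 2.1.1 and CASAVA 1.8.2; the Cuffdiff version, annotation and parameters are not given in the sources used here. The authors deposited 1 merged FPKM value per group, the log2 fold of Ptf1a over control, a signed test statistic (a score), a p-value and a q-value, as named in the file headers. The column group PIG was read as Ptf1a, the only other group in the labels. The deposited mark matched a q under 0.05 in all 23234 rows. Amplification from little RNA adds variation to weak genes, and depth per sample is unknown here.

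Differences were computed as log2(FPKM + 0.1) in Ptf1a minus that in controls, with Python 3.11.15, pandas 2.3.3 and scipy 1.17.1. The pseudocount understates changes of weak genes, and no ratio is given against a 0. No test was added to that of the authors, since merged values carry no replicates, and p-values over samples pooled from several brains measure the spread between those samples. Locus starts were taken as 0-based and 1 was added for printing: 4968 loci then matched the length of an annotated transcript, and 629 without it. The adjustment of normal p-values was tested on simulated data. One list gene, Npy4r, was matched by a synonym, and 2 globin genes had no row.

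The genes and lists were chosen with earlier results of these data known. Named genes are the 10 hormone genes, up to 4 called genes with the largest difference and up to 4 uncalled genes with the highest mean in each of 7 related lists, direct neighbours, the 3 nearest genes in both values, and defining cell type markers; 3 genes so chosen are not reported here. Alternatives covered pseudocounts, centring, q thresholds, an FPKM minimum, normal p-values of the statistic and a shorter promoter window.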

Additional observations from a re-analysis of the deposited data

How the results depend on the processing

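No paired analysis was possible because the table holds 1 merged value per group, and for the same reason no sample could be left out. Directions of the 7 hormone genes with a control value above 0 were the same under both other pseudocounts and after centring. Sizes moved with the pseudocount. With 1 FPKM added the log2 difference was 3.53 for Ghrl, 3.10 for Pyy, 2.10 for Ppy, 0.62 for Gast and -0.040 for Ins1, in place of 6.18, 5.90, 3.95, 2.28 and -0.24 with 0.1 FPKM added. With 0.01 FPKM added it was 7.42 for Ghrl, 7.50 for Pyy, 3.46 for Gast and -0.47 for Ins1. At a q under 0.1 there were 2 hormone genes called higher in place of 1, the added one being Pyy. With normal p-values of the deposited statistic 0 hormone genes were called higher, because Ins2 has no finite statistic and cannot be called that way. That setting calls 6.12% of the 11831 genes with a statistic, where the deposited q calls 37.7% of the 11876 tested genes. Over the related lists it called 12 genes higher and 1 lower, in place of 32 and 9, and in these the acinar genes higher went from 11 to 6 and the islet factors higher from 10 to 3. The 11 acinar genes include Cela3b, Clps, Rnase1 and Sycn, which like Ins2 have an infinite deposited fold and no implied standard error. The fall in the acinar count is therefore in part a matter of which genes have a finite statistic. Fragments per gene are not given in the sources used here, so the error of a value is known only where the authors left a test statistic.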

Other observations

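Genes with a low value in controls and a clear one with Ptf1a were counted with limits chosen after the values were seen, under 0.2 FPKM in controls and at least 3 FPKM with Ptf1a, leaving out small RNAs and unnamed models. There were 28 such tested genes, of which 15 were called and 13 were not, where 37.7% of all tested genes were called. All 3 genes listed at 0 in controls were called, and 12 of the 25 above 0. The 28 were picked by these same values, so the counts are a description only. The 28 include Ghrl, Pyy and Ppy and 11 genes of the acinar list. The 13 uncalled genes were these 3 hormone genes, the acinar genes Cela2a, Try4, Prss3 and Cpb1, the trypsinogen Try5 (0.105 and 23.0 FPKM), the secreted or mucosal genes Gkn3, Reg2 and Agr2, the ion channel gene P2rx1 and the pseudogene Pisd-ps1. The called ones included Tff2, a trefoil peptide of the stomach (listed at 0, then 4.16 FPKM), Reg3b (0.160 to 14.9 FPKM), the neural factor Prdm13 (0.0851 to 7.44 FPKM) and the signalling gene Wnt5a (0.0710 to 3.22 FPKM).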
